A study of Mus musculus with 15 samples.

Results

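Hearts of Rnls-/- mice with CKD (the KOCKD group) were compared by RNA-seq with hearts of wild-type mice after a sham operation (the WTSHAM group), so that CKD and the loss of renalase were examined together. The comparison used 6 of the 15 libraries of the series, 3 in each group, chosen by their sample titles. It was made over the 12704 of 17447 genes in the count table with 10 or more counts in at least 3 of these 6 libraries. All mice were male C57BL/6J mice that entered the study as young adults, and hearts were taken 18 weeks after surgery. The KOCKD mice carried a TALEN-made knockout of Rnls, had most of their kidney tissue removed in staged operations and received the vector, the control of the AAV9-cTnT-Rnls treatment, into the tail vein in the following weeks. The WTSHAM mice were wild type, kept both kidneys, and have no vector in their labels. Wild-type mice came from a research institute and knockout mice from a company, and littermate controls were not mentioned. A sham group of knockout mice was not analysed here, so CKD, renalase loss, the vector and the source of the mice cannot be told apart in this comparison. Wild-type mice with CKD and the vector (the WTCKD group, 3 hearts) are given beside it. They differ from KOCKD by genotype and mouse source, and their comparison with WTSHAM uses the same 3 sham hearts.

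Renalase is a secreted flavoprotein made mainly by the kidney and also by the heart, and it has been studied as an enzyme and as a survival signal. CKD is known to enlarge and stiffen the left ventricle. Growth of cardiomyocytes brings back fetal genes such as Nppa and Myh7, and fibroblasts lay down collagen. Interferon-inducible genes form another program of the heart. Type I interferons act through a complex with STAT2 and IRF9 that binds interferon-stimulated response elements (ISREs) in the promoters of antiviral and antigen presentation genes, and IRF7 amplifies the response.

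The clearest feature of the KOCKD hearts was a low level of these interferon-inducible genes. Promoters of 3 of them are shown because they carry the ISRE and because the genes were downregulated together. The sequences are RefSeq's for GRCm38.p6, from 250 bases before to 50 bases after the start of the gene, written 5′ to 3′ on the strand of the gene. Capitals mark GAAANNGAAA, read on both strands, where overlapping matches run together. Isg15 encodes a ubiquitin-like protein (chr4:156200769-156201068, minus strand), Ifit1 encodes a protein that binds foreign RNA caps (chr19:34640639-34640938, plus strand), and Igtp encodes a GTPase that acts against intracellular parasites (chr11:58199306-58199605, plus strand).
Isg15: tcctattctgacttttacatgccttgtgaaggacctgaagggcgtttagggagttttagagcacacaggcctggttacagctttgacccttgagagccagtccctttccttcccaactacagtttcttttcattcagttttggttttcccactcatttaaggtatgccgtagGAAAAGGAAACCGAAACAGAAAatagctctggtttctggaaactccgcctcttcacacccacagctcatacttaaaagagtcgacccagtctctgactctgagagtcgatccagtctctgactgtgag
Ifit1: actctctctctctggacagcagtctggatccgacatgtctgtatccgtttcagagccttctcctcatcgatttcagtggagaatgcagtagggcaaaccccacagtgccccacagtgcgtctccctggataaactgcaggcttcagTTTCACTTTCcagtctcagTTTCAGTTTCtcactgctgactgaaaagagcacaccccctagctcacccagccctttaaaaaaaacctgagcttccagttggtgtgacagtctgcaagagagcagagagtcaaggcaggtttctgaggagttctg
Igtp: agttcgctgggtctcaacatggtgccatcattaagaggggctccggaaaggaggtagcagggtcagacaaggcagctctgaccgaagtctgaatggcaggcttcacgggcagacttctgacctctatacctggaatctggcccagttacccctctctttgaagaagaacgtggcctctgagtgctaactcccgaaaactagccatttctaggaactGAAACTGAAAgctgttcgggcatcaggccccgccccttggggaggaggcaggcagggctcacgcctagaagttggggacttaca
Such a match stood in at least 1 promoter of 20 of the 31 interferon-inducible genes with a promoter in the table (64.5%), of 44 tested, and likewise in 387 of the 10128 tested genes with a promoter (3.82%), in 83 of 854 called lower (9.72%) and in 23 of 580 called higher (3.97%). The motif TTCNNNGAA, the gamma-activated sequence, stood in a promoter of 11 of the same 31 genes (35.5%) and in 8.28% of tested genes. Over all 32851 promoters of 300 bases in the table, 3.44% held the first motif and 8.30% the second. The interferon list was written by hand from general knowledge, and most of its members are among the genes called lower. These shares are thus not independent of each other. A match is a description of these letters and not of binding.

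The 6 libraries held 10953142 to 13107066 counted reads. The groups rest on the labels, because Rnls was not analysed here. Cardiomyocyte genes were abundant in each group, with Myh6 at 4828 to 6709 FPKM and Tnnt2 at 5805 to 7563 FPKM over the WTSHAM, WTCKD and KOCKD hearts, while the lung marker Sftpc had no count, the T cell marker Cd3e had 1 to 7 counts and the skeletal muscle gene Myh4 had 0 to 1. One sham library, WTSHAM 1, stood apart. Its counts differed from those of WTSHAM 2 and WTSHAM 3 by a chi-square of 19.8 and 20.4 per gene, against 9.05 between the latter and 8.96 to 11.5 among the KOCKD libraries. Its clock gene Per2 was at 33.9 CPM (counts scaled to library size) against 5.19 and 4.64 CPM in the other sham hearts, and the heat shock gene Hspa1a was at 82.4 CPM against 1.35 and 2.28 CPM. The column names of WTSHAM 2 and WTSHAM 3 share a prefix that WTSHAM 1 lacks. Those of the KOCKD libraries share a prefix that no other library of the series has. What the prefixes stand for was not given in the sources used here. Anything they stand for cannot be told apart from the KOCKD group. The methods of the study name 2 kinds of instrument as alternatives. Which was used for each heart was not given in the sources used here, so values within an instrument could not be computed. P-values measure only the spread between hearts within groups, pooled over all 15 libraries of the series in 1 fit.

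At an adjusted p under 0.05 (edgeR quasi-likelihood test, Benjamini-Hochberg over all tested genes), 1815 genes were changed in KOCKD hearts (14.3%), of which 713 were upregulated (5.61%) and 1102 downregulated (8.67%). Counts of called genes in the lists below are to be read against these shares. At the threshold of the study's methods, a change of over 25% in either direction with an unadjusted p under 0.05, 2734 genes passed (21.5%), of which 956 were upregulated. The 2 groups did not overlap in 4376 genes (34.4%). Among the 1815 called genes they did not overlap in 1768, so a lack of overlap in a called gene is usual. The changes were mostly small, with a median size of 0.489 on the log2 scale among the 1815 genes, and large ones were mostly decreases. Only 18 called genes rose by more than 1 on the log2 scale, and 230 fell by more than 1. The number of called genes rested on single libraries. It was 2033 without WTSHAM 1, 1001 without WTSHAM 2, 700 without WTSHAM 3, 1205 without KOCKD 1, 749 without KOCKD 2 and 1079 without KOCKD 3.

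Gene length moved with these calls. In the shortest sixth of genes, of 0.206 to 1.78 kb, the median log2 fold change was 0.22 and 15.1% were called higher against 2.36% lower. In the longest sixth, over 7.20 kb, the median was -0.26 and 1.23% were called higher against 24.8% lower. The slope of a library's log2 level per doubling of gene length was -0.074, -0.12 and -0.093 in the KOCKD hearts, below -0.011, 0.033 and 0.078 in the WTSHAM hearts without overlap. It was -0.044, -0.002 and 0.001 in WTCKD hearts and 0.073, 0.086 and 0.064 in KOCKD hearts given AAV9-cTnT-Rnls (KOCKD + RNLS). In wild-type CKD hearts given AAV9-cTnT-Rnls (WTCKD + RNLS) it was 0.043, -0.103 and 0.07. The library WTCKD + RNLS 2 thus lay within the KOCKD range, apart from the rest of its group. When each library's trend with length was taken out by offsets, 1048 genes were called, 414 higher (3.26%) and 634 lower (4.99%), and 799 genes were called both ways, 242 higher and 557 lower. Whether the trend came from the hearts or from RNA quality and library preparation was not tested. Values with these length offsets are therefore given beside the gene groups below.

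**Figure D1:**
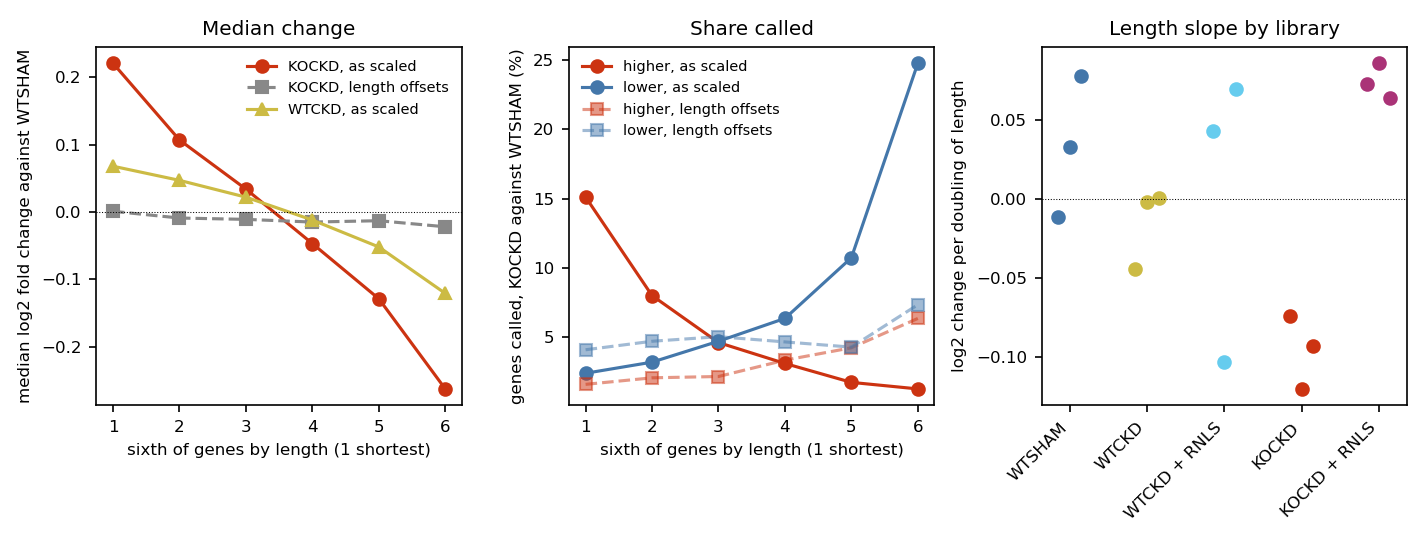
Gene length and the change in KOCKD hearts. Left and middle, for sixths of the 12704 tested genes ordered by length (sixth 1 the shortest, x axis), the median log2 fold change against WTSHAM and the percentage of genes called higher or lower in KOCKD, as scaled and with length offsets. Right, the log2 change per doubling of length in each of the 15 libraries by group, one point per heart. As scaled, the median fell from 0.22 to -0.26 over the sixths, and with offsets it stayed between 0.001 and -0.022.

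Of the 44 interferon-inducible genes tested, 42 were downregulated in KOCKD hearts, none was upregulated, and the median log2 fold change was -2.01, against -0.008 over all tested genes. With length offsets 41 were called lower and the median was -1.98. Irf7, the amplifier of the response, was at 112, 179.9 and 81.3 CPM in the WTSHAM hearts and at 14.2, 15.8 and 16.7 CPM in the KOCKD hearts. The lowest sham heart was thus well above the highest KOCKD heart, and the fitted levels of the groups differed by 8-fold (log2 fold change -3.000 ± 0.27, adjusted p = 2.21e-05). Stat2, of the complex that binds the ISRE, was at 51.6, 92.97 and 52.6 CPM against 16.4, 14.2 and 20.5 CPM (-1.95 ± 0.21, adjusted p = 0.000118). These factors, and Irf9 at -1.60 ± 0.20, were lower in each KOCKD heart than in any sham heart. In bulk RNA, fewer cells of a type and less RNA per cell cannot be told apart.

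The antiviral effectors showed the same order of groups. Ifit1 was at 49.6, 82.5 and 33.8 CPM in sham and 6.73, 9.31 and 8.78 CPM in KOCKD hearts, a 6.68-fold fall (adjusted p = 0.000368). Isg15 was at 29.2, 27.7 and 11.9 CPM against 4.37, 3.63 and 4.75 CPM (adjusted p = 0.000859). Zbp1, a sensor of Z-form nucleic acid, was at 16.9, 17.4 and 6.70 CPM against 2.19, 1.96 and 1.45 CPM, and Bst2, which tethers viruses to the cell membrane, at 87.05, 84.4 and 55.4 CPM against 17.5, 21.2 and 18.1 CPM. Their log2 fold changes were -2.87 ± 0.38 and -1.996 ± 0.20, with adjusted p values of 0.000428 and 4.43e-05. KOCKD and sham values did not overlap in either gene, which for Zbp1 was a condition of its naming. Ifi44 fell by 5.41-fold (adjusted p = 0.000102), from 38.4, 30.5 and 14.8 CPM in sham to 5.51, 4.84 and 5.08 CPM in KOCKD hearts. Ifi213 and Ifit3b, also named for their large falls, had log2 fold changes of -2.76 ± 0.34 and -2.75 ± 0.35. Reads of Ifit, Oas, Gbp and Tgtp genes may be shared among near-identical copies, so the split within these families is uncertain.

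The interferon-inducible GTPases, which attack vacuoles of intracellular pathogens, were also low in KOCKD hearts but spread widely among the sham hearts. Igtp was at 44.9, 409.5 and 170.5 CPM in WTSHAM and 20.5, 36.5 and 34.7 CPM in KOCKD hearts (-2.77 ± 0.52, adjusted p = 0.00435). Its sham hearts differed by 9.12-fold, and a lack of overlap between the groups was a condition of its naming. Gbp10 was at 6.58, 27.8 and 11.6 CPM against 1.75, 2.14 and 1.85 CPM (adjusted p = 0.00936). The largest falls among called genes were in 2 genes for related GTPase-like proteins, F830016B08Rik with 11.6, 453 and 313 CPM against 2.54, 4.75 and 4.35 CPM (adjusted p = 0.00219), and Gm4841 with 1.999, 80.8 and 23.04 CPM against 0.44, 1.77 and 0.89 CPM (adjusted p = 0.014). WTSHAM 1 was the lowest sham library for these 4 genes. Gm4841 was at -3.62 on the log2 scale without WTSHAM 2 and did not pass there (adjusted p = 0.0633), and Igtp was at -1.82 without WTSHAM 2. Over the 44 interferon-inducible genes the highest sham heart was WTSHAM 2 in 35 genes and WTSHAM 1 in 9, and the lowest was WTSHAM 3 in 28 and WTSHAM 1 in 16. The ratio of the highest to the lowest sham heart had a median of 2.26. Leaving out any one library left 37 to 41 genes called, and the median log2 fold change was nearest to 0, at -1.61, without WTSHAM 2.

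The interferon-inducible genes were low in wild-type hearts with CKD as well. In WTCKD against WTSHAM, where 1.76% of genes were called lower and 0.653% higher, 41 of the 44 were downregulated and the median log2 fold change was -1.87. Irf7 was at 18.1, 16.6 and 15.6 CPM in WTCKD hearts, in the same range as in KOCKD hearts. Between KOCKD and WTCKD, where 0 of 12704 genes were called by edgeR (0%), 9 were by DESeq2 and 10.2% had an unadjusted p under 0.05 in edgeR, the median of the 44 genes was -0.06 and 2 had an unadjusted p under 0.05. Summed over the list, the WTSHAM hearts held 2000, 4715 and 2398 CPM. The other 12 hearts, nephrectomised in all 4 remaining groups, held 639.9 to 883.4 CPM. For 36 of the 44 genes (81.8%) each of these 12 hearts was below each sham heart, which was so for 2.73% of all tested genes. The sham group differs from the other groups by the operation and, in the labels, by the vector, and their parts cannot be told apart.

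**Figure D2:**
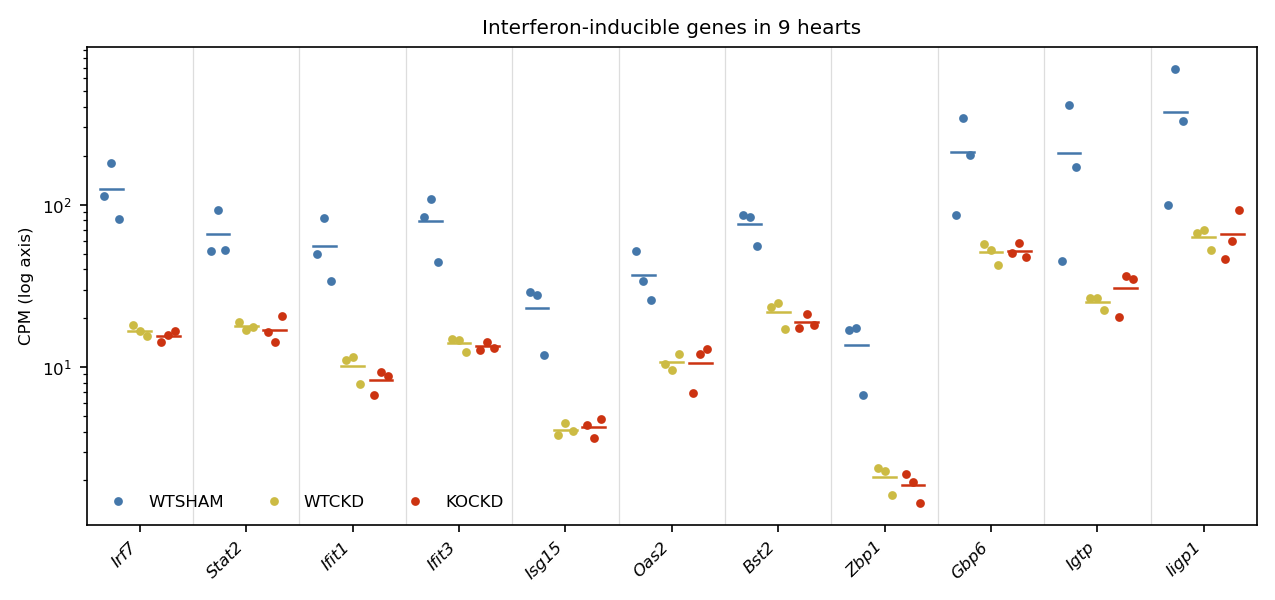
Interferon-inducible genes in single hearts. CPM on a log axis for 11 genes in 3 WTSHAM, 3 WTCKD and 3 KOCKD hearts, one point per heart and a line at the group mean. For each gene shown every KOCKD heart lies below every WTSHAM heart, and Irf7 has a KOCKD range of 14.2 to 16.7 CPM against 81.3 to 179.9 CPM.

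Antigen presentation genes followed in part. Of 21 MHC class I presentation genes, 10 were downregulated and none was upregulated, with a median of -0.43, and with length offsets 12 were downregulated. H2-T23, a nonclassical class I molecule, was at 71.1, 77.6 and 47.5 CPM in sham and 27.4, 34.6 and 26.02 CPM in KOCKD hearts (-1.16 ± 0.17, adjusted p = 0.000952). H2-T24 was at 39.9, 30.8 and 22.1 CPM against 7.87, 15.3 and 11.04 CPM (adjusted p = 0.00325). Nlrc5, the transactivator of class I genes, had a log2 fold change of -1.56 ± 0.35, and the immunoproteasome subunit Psmb9 one of -0.96 ± 0.20. The groups were apart in each of these genes, as in most called genes. The class I light chain B2m was not called, at 497, 821 and 526 CPM against 362, 573 and 449 CPM. In WTCKD hearts 8 of the 21 were downregulated. The KOCKD count was 4 without KOCKD 1, 5 without WTSHAM 2, and 6 without WTSHAM 3 or KOCKD 3. Of 10 MHC class II presentation genes 1 was called, as with length offsets, the protease gene Ctss, at 42.1, 57.9 and 43.5 CPM against 21.1, 23.4 and 19.01 CPM (-1.18 ± 0.20, adjusted p = 0.00262). The class II chain H2-Ab1 had overlapping values of 35.5, 92.6 and 74.6 and 39.2, 59.9 and 52.4 CPM. Parp14, an interferon-inducible member of the list of NAD metabolism genes, fell from 120.5, 142 and 97.1 CPM to 35.8, 37.9 and 39.1 CPM (-1.67 ± 0.14, adjusted p = 2.21e-05).

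Most macrophage and complement genes tested were also called lower in KOCKD hearts. Of 14 macrophage markers 13 were downregulated, with a median of -0.86, and the same number was called with length offsets. Their summed level was 406.2, 475.9 and 433.2 CPM in WTSHAM hearts and 266.8, 266.4 and 220.6 CPM in KOCKD hearts, without overlap and with no marker at 0. Lyve1, a marker of resident macrophages that lymphatic vessels share, was at 37.99, 31.2 and 22.7 CPM against 14.9, 12.3 and 9.51 CPM (-1.32 ± 0.23, adjusted p = 0.00295). Fcgr1, a high-affinity receptor for antibody that interferon also induces, was at 11.3, 9.03 and 6.18 CPM against 2.80, 2.33 and 2.34 CPM (-1.82 ± 0.27, adjusted p = 0.000984). Ccr2, the receptor of monocyte-derived macrophages, was at 4.42, 5.34 and 4.71 CPM against 2.62, 1.77 and 2.74 CPM (adjusted p = 0.0137). Each marker of resident and recruited cells named here was lower in all KOCKD hearts. In WTCKD against WTSHAM 1 of the 14 was called, Fcgr1, and the median was -0.43. In KOCKD against WTCKD none was called, 6 had an unadjusted p under 0.05, as had 10.2% of all tested genes, and the median was -0.40. The KOCKD count was 6 without WTSHAM 3 and 8 without WTSHAM 2, KOCKD 2 or KOCKD 3.

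Of 17 complement genes 11 were downregulated and none was upregulated, with a median of -0.75, and 11 were also called with length offsets. C4b, of the classical pathway, was at 115, 112 and 95.8 CPM in WTSHAM and 35.6, 30.3 and 30.4 CPM in KOCKD hearts (-1.75 ± 0.32, adjusted p = 0.00398). Its WTCKD values of 95.7, 66.05 and 31.8 CPM ran from the KOCKD to the sham level. Cfp, which encodes properdin, the activator of the alternative pathway, was at 15.1, 15.1 and 14.5 CPM against 8.04, 8.01 and 8.22 CPM (adjusted p = 0.000984). C1qc, a chain of the C1q complex that macrophages make, had a log2 fold change of -0.78 ± 0.15. C1qa and C1qb stand in both the complement and the macrophage list. In WTCKD hearts 2 of the 17 were called lower. The KOCKD count was 6 without WTSHAM 2, KOCKD 2 or KOCKD 3 and 7 without WTSHAM 3.

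Of 18 chemokine and cytokine genes 5 were downregulated and none was upregulated, where 14.3% of all tested genes were called. Their median was -0.52, and 11 further genes of the list, Il6 and Tnf among them, were too low to test. Ccl2, the ligand of CCR2, was at 6.75, 6.25 and 3.31 CPM against 0.70, 1.12 and 1.45 CPM (-2.30 ± 0.46, adjusted p = 0.00599). Ccl12, another CCR2 ligand, was at 5.67, 5.34 and 2.58 CPM against 1.31, 0.93 and 1.05 CPM (adjusted p = 0.00617), and Ccl9 had a log2 fold change of -1.09 ± 0.25. Csf1, the growth factor of macrophages, was at 98.8, 114 and 80.02 CPM against 56.5, 51.4 and 57.2 CPM (-0.83 ± 0.12, adjusted p = 0.00109) and was also low in WTCKD hearts, at 61.9, 61.9 and 48.3 CPM. In WTCKD hearts 1 of the 18 was called, Csf1. With length offsets 5 were downregulated and 1 was upregulated.

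Part of the matrix genes, the usual markers of fibrosis, were called lower in KOCKD hearts, as were 8.67% of all tested genes, and none was called higher. Of 25 collagen chains 8 were downregulated and none was upregulated, with a median of -0.69, and of 34 matricellular and matrix genes 10 were downregulated and none was upregulated, with a median of -0.74. Col1a2, a chain of type I collagen, was at 162, 275 and 215 CPM against 132, 101 and 102 CPM (-0.96 ± 0.18, adjusted p = 0.00463). Its partner Col1a1 was at 112, 253 and 177 CPM against 154, 92.2 and 89.1 CPM and did not pass (adjusted p = 0.0778). Col3a1, the main chain of type III collagen, was at 187, 395 and 372 CPM against 248, 168 and 169.9 CPM and did not pass either (adjusted p = 0.0534). The sham hearts spread more than the KOCKD hearts in both, and WTSHAM 1 was the lowest sham heart. Col5a2, Col16a1 and Col6a3 were downregulated, with log2 fold changes of -1.03 ± 0.20, -0.90 ± 0.18 and -0.83 ± 0.17.

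Cilp, which encodes a cartilage intermediate layer protein that fibroblasts secrete, was at 40.6, 82.7 and 43.5 CPM in WTSHAM and 19.2, 7.92 and 11.4 CPM in KOCKD hearts (-2.11 ± 0.38, adjusted p = 0.00306). Thbs1, an activator of TGF-beta, was at 42.1, 69.6 and 37.4 CPM against 16.1, 7.27 and 10.2 CPM (-2.15 ± 0.49, adjusted p = 0.0113). The proteoglycan gene Vcan was at 23.6, 48.8 and 37.99 CPM against 17.3, 11.4 and 12.2 CPM, and the elastic fibre gene Fbln2 at 194, 185 and 161 CPM against 132, 81.2 and 89.1 CPM, with adjusted p values of 0.00893 and 0.00537. No KOCKD heart reached the lowest sham heart in these 4 genes. Postn, a marker of activated fibroblasts, was at 64.8, 111 and 73.2 CPM against 62.1, 38.7 and 45.4 CPM, with a log2 fold change of -0.77 ± 0.26 that did not pass (adjusted p = 0.0592).

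Collagen genes are long, with a median length of 6.55 kb against 3.63 kb over all tested genes. With length offsets 5 of the 25 collagen chains and 8 of the 34 matrix genes were called lower, with medians of -0.58 and -0.60. The collagen count was 18 without WTSHAM 1, 5 without WTSHAM 3 and 4 without WTSHAM 2 or KOCKD 2, and the matrix count was 19 without WTSHAM 1, 4 without WTSHAM 2 or WTSHAM 3, 5 without KOCKD 3 and 3 without KOCKD 2. In WTCKD hearts none of either list was called, with medians of -0.40 and -0.28. Between KOCKD and WTCKD none was called, and 2 collagens and 6 matrix genes had an unadjusted p under 0.05, as had 10.2% of all tested genes. The summed collagen level overlapped, at 1935, 3258 and 2840 CPM in WTSHAM and 2313, 1869 and 1798 CPM in KOCKD hearts. Of 12 fibroblast markers 4 were downregulated (median -0.51), with a summed level of 2874, 4066 and 3748 CPM against 2837, 2096 and 2188 CPM, and of 10 markers of activated fibroblasts 4 were (median -0.76), with 284.4 to 533.2 CPM against 238.3 to 455.8 CPM. The fibroblast count was 9 without WTSHAM 1, 7 without KOCKD 1 and 2 without any other of the libraries, and 4 with length offsets. The activated fibroblast count was 1 without KOCKD 2 or WTSHAM 2, and 2 without WTSHAM 3 or with length offsets. No fibroblast marker was at 0. Of 6 valve and cartilage markers 2 were downregulated, with a summed level of 69.84, 256.6 and 108.9 CPM in WTSHAM and 64.56, 25.79 and 43.31 CPM in KOCKD hearts. The valve count was also 2 with length offsets, and 1 without KOCKD 2, KOCKD 3, WTSHAM 2 or WTSHAM 3. The part of these cells in the matrix values was not tested.

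**Figure D3:**
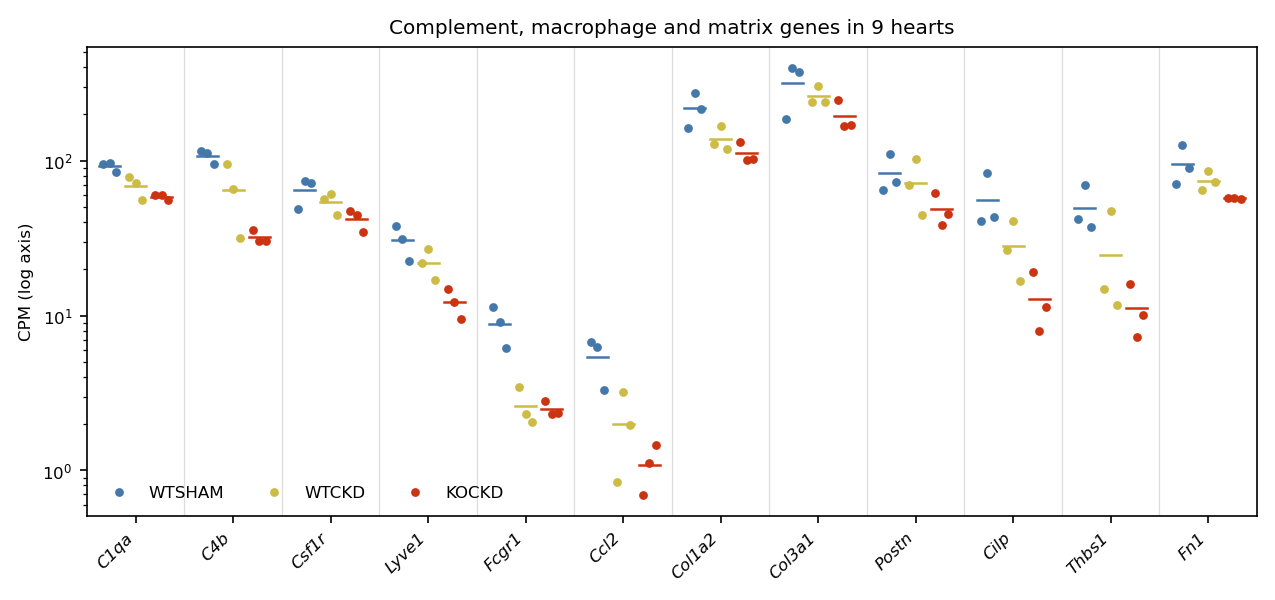
Complement, macrophage, chemokine and matrix genes in single hearts. CPM on a log axis for 12 genes in 3 WTSHAM, 3 WTCKD and 3 KOCKD hearts, one point per heart and a line at the group mean. C4b, Lyve1, Fcgr1, Cilp and Thbs1 are lower in each KOCKD heart than in any WTSHAM heart, while Col3a1 overlaps.

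Genes that shape and cut the matrix were mostly lower where they were called. Of 25 proteases and inhibitors 6 were downregulated and 1, Mmp15, was upregulated, where 14.3% of all tested genes were called. The median was -0.34, and the counts were the same with length offsets. Adamts2, which trims the ends of procollagen, was at 36.1, 45.7 and 39.1 CPM against 21.2, 19.6 and 19.3 CPM (-1.005 ± 0.16, adjusted p = 0.0016). Serpinh1, the collagen chaperone, was at 477, 325 and 392 CPM against 227, 298 and 229 CPM (adjusted p = 0.00554). Adamts15 and Timp3 had log2 fold changes of -1.15 ± 0.26 and -0.60 ± 0.14, and each of these 4 genes was lower in all KOCKD hearts. The count was 3 without KOCKD 2. Of 23 genes of the TGF-beta pathway 5 were downregulated and 1, the ligand Tgfb1, was upregulated, with a median of -0.23. The receptors Tgfbr2, Bmpr2 and Bmpr1a had log2 fold changes of -0.47 ± 0.12, -0.42 ± 0.10 and -0.29 ± 0.08, and the feedback repressor Skil was at 31.7, 24.8 and 27.7 CPM against 12.6, 15.1 and 13.7 CPM (-1.03 ± 0.19, adjusted p = 0.00391). With length offsets 2 of the 23 were called, Skil and Tgfbr2. The count of 6 was 3 without KOCKD 1, KOCKD 2 or WTSHAM 3 and 2 without KOCKD 3.

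**Figure D4:**
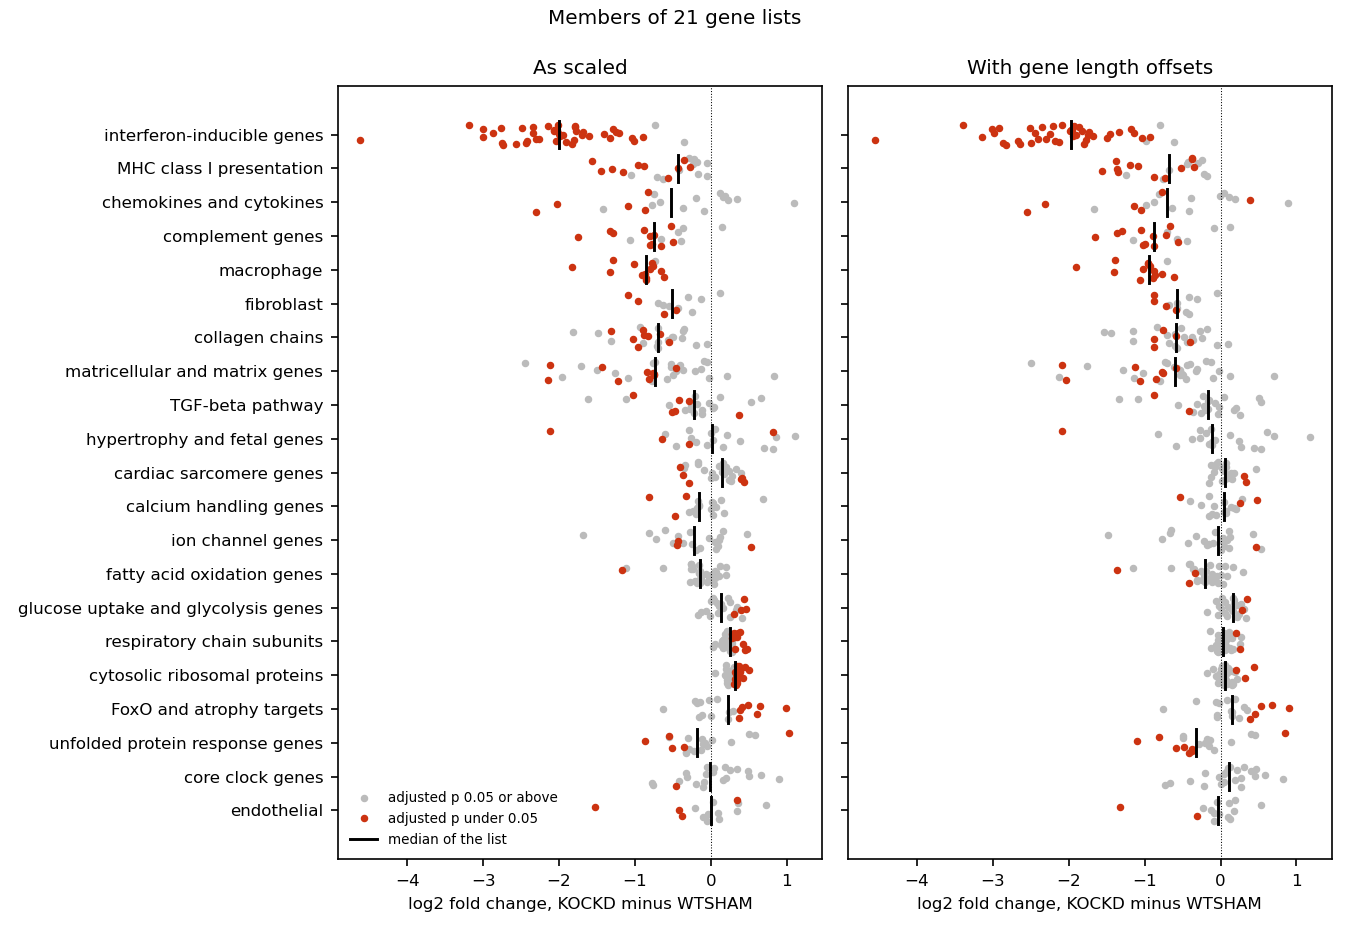
Members of 21 gene lists in KOCKD hearts against WTSHAM hearts. Each point is one gene at its log2 fold change (x axis), red where the adjusted p is under 0.05, and each black bar is the median of its list (y axis), as scaled on the left and with length offsets on the right. The interferon-inducible genes have a median of -2.01 as scaled and -1.98 with offsets, while the cytosolic ribosomal proteins move from 0.32 to 0.06.

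Of the usual markers of cardiac hypertrophy, Nppa, Myh7 and Acta1 overlapped between the groups. Nppa, the atrial natriuretic peptide gene, was at 118, 239.8 and 409 CPM in WTSHAM and 313, 103 and 936 CPM in KOCKD hearts (0.82 ± 0.77, adjusted p = 0.495). Myh7, the fetal myosin heavy chain, was at 853, 184 and 169 CPM against 319, 134 and 896 CPM (adjusted p = 0.892), and skeletal actin Acta1 at 1738, 788 and 459.7 CPM against 1335, 402 and 444 CPM (adjusted p = 0.645). The high values came from different hearts, KOCKD 3 for Nppa, WTSHAM 1 and KOCKD 3 for Myh7, and WTSHAM 1 and KOCKD 1 for Acta1. Atrial markers varied as widely, with a summed level of 313.3, 654.0 and 1536 CPM in WTSHAM and 604.9, 271.4 and 2934 CPM in KOCKD hearts and none of 9 called, their median log2 fold change went from 0.59 to -0.79 without KOCKD 3, and their part in the Nppa values was not tested. Nppb, the B-type peptide gene, was at 186, 98.3 and 128 CPM against 193, 264 and 216 CPM, without overlap, and did not pass (log2 fold change 0.71 ± 0.26, adjusted p = 0.0798). Its length-offset log2 fold change was 0.45 (adjusted p = 0.25).

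Of 20 hypertrophy and fetal genes, 1 was upregulated and 3 were downregulated, with a median of 0.02, where 14.3% of all tested genes were called. The ubiquitin hydrolase gene Uchl1 rose, from 9.08, 7.75 and 5.37 CPM to 13.37, 13.97 and 11.8 CPM (0.82 ± 0.20, adjusted p = 0.0149). Besides Cilp, the adult myosin gene Myh6 fell slightly, from 38290, 35740 and 41100 CPM to 32290, 31660 and 30140 CPM (-0.29 ± 0.09, adjusted p = 0.0338), and Xirp2, of the intercalated disc, fell by 1.56-fold. With length offsets only Cilp of these 4 was called. The count of 4 was 7 without WTSHAM 1, 2 without WTSHAM 3 and 1 without KOCKD 2. Of 25 sarcomere genes 3 were upregulated and 3 downregulated, with a median of 0.15. The short genes Myl2, Tnni3 and Tnnc1, for a myosin light chain and 2 troponins, were at log2 fold changes of 0.43 ± 0.09, 0.40 ± 0.09 and 0.41 ± 0.11. The long genes Nebl and Ttn were at -0.40 ± 0.09 and -0.37 ± 0.12. With length offsets Myl2 was called at 0.33, the other 4 were not, and 2 of the 25 were called in all. The count of 6 was 2 without KOCKD 2 and 1 without WTSHAM 3. Of 10 cardiomyocyte markers 2 were upregulated and 3 downregulated, 1 with length offsets, and their summed level overlapped at 92210 to 102800 CPM in WTSHAM and 94750 to 102300 CPM in KOCKD hearts.

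Over all tested genes 14.3% were called, and in the longest sixth of genes 24.8% were called lower. Of 18 calcium handling genes 3 were downregulated and none was upregulated. They were Ryr2, the calcium release channel, at 2274, 1998 and 2296 CPM against 1689, 1451 and 1605 CPM (adjusted p = 0.00443), Itpr2 at 40.6, 33.5 and 27.5 CPM against 15.9, 21.1 and 20.8 CPM (adjusted p = 0.00525), and Atp2b1 at a log2 fold change of -0.33 ± 0.10. These are long genes, of 16.95, 12.7 and 7.57 kb. With length offsets Itpr2 alone of them was called (-0.54, adjusted p = 0.0439), 2 others of the list rose, and the median of the list went from -0.15 to 0.05. Of 22 ion channel genes 1 was upregulated and 2 were downregulated, with a median of -0.23. Kcnip2, the subunit of the transient outward potassium current, rose from 208, 159 and 171 CPM to 268, 271 and 235 CPM (0.53 ± 0.12, adjusted p = 0.00936), was called with length offsets (0.47), and rose in WTCKD hearts as well (0.50, adjusted p = 0.0323). The potassium channel gene Kcnj12 fell, with a log2 fold change of -0.43 ± 0.10, and was not called with length offsets. The ion channel count was 7 without WTSHAM 1 and 1 without KOCKD 1.

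Part of the respiratory chain and ribosomal genes, which are short, were called higher by small amounts, and few of them with length offsets. Of 36 respiratory chain subunits 12 were upregulated and none was downregulated, with a median of 0.25, and of 36 cytosolic ribosomal proteins 18 were upregulated and none was downregulated, with a median of 0.32. Ndufa4, of cytochrome oxidase, was at 668, 609 and 599.7 CPM against 746, 948 and 880.1 CPM (0.46 ± 0.11, adjusted p = 0.0134). The ATP synthase genes Atp5c1 and Atp5h and the complex I gene Ndufb5 were at log2 fold changes of 0.36 ± 0.09, 0.39 ± 0.10 and 0.48 ± 0.13. Rpl22 was at 118, 117 and 108 CPM against 145, 156 and 159.7 CPM (0.42 ± 0.09, adjusted p = 0.00798), and Rps23 and Rps20 at 0.34 ± 0.08 and 0.46 ± 0.12. The groups did not overlap in these genes, as in most called genes. The lists have median lengths of 1.30 and 0.875 kb, and with length offsets 2 and 3 genes were called, with medians of 0.04 and 0.06. The respiratory count was 0 without WTSHAM 3 or KOCKD 2 and 1 without WTSHAM 2 or KOCKD 3, and the ribosomal count was 2 without WTSHAM 3, KOCKD 2 or KOCKD 3 and 3 without WTSHAM 2. Ribosomal protein genes have many processed copies in the genome, which adds uncertainty to their counts. In WTCKD hearts no member of either list was called, with medians of 0.09 and 0.16. Between KOCKD and WTCKD none was called either. There 10 respiratory and 9 ribosomal genes had an unadjusted p under 0.05 in edgeR, as had 10.2% of all tested genes.

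Of 23 genes of glucose uptake and glycolysis 4 were upregulated and none was downregulated, where 14.3% of all tested genes were called. The median was 0.14, or 0.17 with length offsets. Pdk2, a kinase that holds back pyruvate oxidation, was at 610.5, 561 and 612 CPM against 817, 866 and 732 CPM (0.44 ± 0.08, adjusted p = 0.00291), and it was called with length offsets (0.35). It rose in WTCKD hearts too, to 842, 800.2 and 905 CPM (adjusted p = 0.00195). Of the glycolytic enzymes, Aldoa, Gapdh and Gpi1 were at log2 fold changes of 0.40 ± 0.10, 0.47 ± 0.13 and 0.31 ± 0.10, of which Aldoa was also called with length offsets. Gapdh has many processed copies that could share its reads. The glycolysis count was 7 without WTSHAM 1, 2 without KOCKD 1 and 1 without KOCKD 2, WTSHAM 2 or WTSHAM 3. Of 33 fatty acid oxidation genes 1 was downregulated, the thioesterase gene Acot1, from 10.8, 15.8 and 22.2 CPM to 4.46, 9.59 and 7.73 CPM (-1.17 ± 0.34, adjusted p = 0.0335), and the median was -0.14. With length offsets 3 were downregulated, and the count was 0 without KOCKD 1, KOCKD 3, WTSHAM 2 or WTSHAM 3.

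Part of the FoxO and atrophy targets rose in both groups with CKD. Of 19 such genes 7 were upregulated in KOCKD hearts and none was downregulated, where 5.61% of all tested genes were called higher. The median was 0.23, and 5 were called with length offsets. Cited2, a transcriptional coregulator, was at 29.5, 41.1 and 34.9 CPM in WTSHAM and 79.7, 58.03 and 71.8 CPM in KOCKD hearts (0.99 ± 0.12, adjusted p = 0.000256). The autophagy gene Gabarapl1 was at 139, 86.3 and 92.98 CPM against 160.2, 166 and 158 CPM (adjusted p = 0.0118), the inhibitor of PI3K Pik3ip1 at 52.2, 42.3 and 36.9 CPM against 78.9, 59.2 and 67.3 CPM (adjusted p = 0.0167), and the muscle ubiquitin ligase Trim63 at a log2 fold change of 0.37 ± 0.10. The groups were apart in all 4 genes, as in most called genes. Against WTSHAM, 5 of the 19 were upregulated in WTCKD hearts. The KOCKD count was 2 without WTSHAM 3, 3 without KOCKD 1 and 4 without KOCKD 2 or WTSHAM 2. Depp1, a FoxO target outside the list, was among the 12 largest rises, from 42.7, 15.2 and 40.5 CPM to 46.4, 129.8 and 111 CPM (1.54 ± 0.35, adjusted p = 0.0114), and was at 170.2, 165 and 124 CPM in WTCKD hearts. Txnip, an inhibitor of thioredoxin and of glucose uptake, was at 415, 798 and 478 CPM against 1204, 1004 and 1264 CPM (1.04 ± 0.22, adjusted p = 0.00814). With Gstm2 at 0.49 ± 0.12 it made up the 2 upregulated genes of 26 antioxidant and NRF2 targets, whose median went from 0.14 to -0.01 with length offsets. Their count was 6 without WTSHAM 1 and 1 without KOCKD 2, WTSHAM 2 or WTSHAM 3.

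Stress programs differed among themselves. Of 20 genes of the unfolded protein response 4 were downregulated and 1 was upregulated, where 14.3% of all tested genes were called. The median was -0.18, and with length offsets 7 were downregulated. The chaperone genes Pdia4, Hyou1 and Pdia6 had log2 fold changes of -0.51 ± 0.10, -0.55 ± 0.16 and -0.35 ± 0.10. Chac1, which degrades glutathione, rose from 3.75, 3.61 and 3.90 CPM to 6.82, 8.85 and 7.49 CPM (1.04 ± 0.20, adjusted p = 0.00461). In WTCKD hearts 9 were downregulated and 1 was upregulated. The KOCKD count of 5 was 9 without WTSHAM 2, 3 without KOCKD 2 and 2 without KOCKD 1, KOCKD 3 or WTSHAM 3. Of 22 heat shock genes the cold-inducible RNA-binding protein genes Cirbp and Rbm3 rose, at 0.77 ± 0.16 and 0.48 ± 0.13, and the cochaperone gene Dnajb1 fell. Dnajb1 was at 86.7, 16.9 and 22.4 CPM in WTSHAM and 14.2, 13.9 and 18.4 CPM in KOCKD hearts (adjusted p = 0.0377), so the fall rested on WTSHAM 1. Without that library Dnajb1 was at -0.34 on the log2 scale (adjusted p = 0.239) and the median of the list went from -0.11 to 0.22. The heat shock count was 8 without WTSHAM 2 and 1 without KOCKD 1 or KOCKD 3. With length offsets 2 were upregulated and 3 downregulated.

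Clock genes also varied between libraries. Per2, Arntl and Dbp, of the core clock and its output, were not called. Arntl was at 7.66, 21.4 and 32.6 CPM against 23.3, 24.5 and 9.99 CPM (adjusted p = 0.874) and Dbp at 85.4, 40.3 and 13.2 CPM against 52.2, 23.7 and 142 CPM (adjusted p = 0.424). Nr1d1 was at 66.1, 168 and 84.1 CPM against 227, 114 and 255 CPM (adjusted p = 0.0953). Hearts within each group were thus at different levels of these genes. Of 22 clock genes 1 was called, Clock, at -0.46 ± 0.15 with overlapping groups (adjusted p = 0.0463), with 6 called without WTSHAM 1 and 0 without KOCKD 1, KOCKD 2 or WTSHAM 3, with the 6 libraries alone or with length offsets. Of 18 glucocorticoid-responsive genes 1 was upregulated, Klf15, at 0.49 ± 0.14 with overlapping groups (adjusted p = 0.0285), with 3 called without WTSHAM 1, 2 without KOCKD 1 or with length offsets, and 0 without KOCKD 2 or KOCKD 3 or with the 6 libraries alone. None of 25 immediate early genes was called by edgeR, 1 was by DESeq2 and 3 had an unadjusted p under 0.05 in edgeR, and the one with the smallest p, Fosl2, was at 58.1, 25.6 and 36.1 CPM against 25.7, 22.2 and 25.6 CPM (adjusted p = 0.0565).

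Lists close to the known roles of renalase and the kidney held 0 to 3 called genes each, to be read against the 14.3% of all genes called. None of 14 catecholamine receptor and degradation genes was called by edgeR or by DESeq2, 1 had an unadjusted p under 0.05, and the smallest p was that of the phosphodiesterase gene Pde4d, at 51.2, 45.4 and 52.6 CPM against 44.6, 40.99 and 43.98 CPM (adjusted p = 0.106), whose sign turned with length offsets (0.22). Of 22 NAD metabolism genes 2 were downregulated, Parp14 and Bst1, and 1, the mitochondrial deacetylase gene Sirt3, was upregulated but not called with length offsets. Bst1, which cleaves NAD on immune and stromal cells, was at 2.17, 2.63 and 2.50 CPM against 0.70, 0.65 and 0.97 CPM (-1.64 ± 0.36, adjusted p = 0.01). Of 14 renin-angiotensin-aldosterone genes 3 were downregulated, the angiotensin IV receptor Lnpep at -0.86 ± 0.15 (adjusted p = 0.00325), the glucocorticoid receptor Nr3c1 at -0.29 ± 0.07 and the peptidase Mme at -0.69 ± 0.21, and Lnpep alone of them was called with length offsets. Of 13 fibroblast growth factor and Klotho genes Fgf13 rose (0.45 ± 0.10) and Fgf1 fell (-0.34 ± 0.09), and Fgf1 was not called with length offsets. Of 18 iron and heme genes the ferritin gene Fth1 rose, from 1908, 2140 and 1977 CPM to 2550, 2679 and 2578 CPM (adjusted p = 0.00957), the transporter genes Slc39a14 and Slc25a37 fell, and none was called with length offsets. Of 24 sterol synthesis genes Fdft1 rose, from 40.6, 37.1 and 37.2 CPM to 52.8, 56.7 and 56.4 CPM (0.53 ± 0.09, adjusted p = 0.00207). None of 6 aryl hydrocarbon receptor targets and none of 27 cell cycle genes was called by either tool or had an unadjusted p under 0.05, with Ahrr at 6.41, 3.46 and 6.62 against 10.1, 5.68 and 9.02 CPM. Cenpa, of the centromere, was at a log2 fold change of 0.26 ± 0.13. The counts of these short lists rested on single libraries, and without WTSHAM 1 there were 6 NAD, 5 renin-angiotensin, 5 iron, 4 sterol and 4 fibroblast growth factor genes called. The renin-angiotensin count was 1 without WTSHAM 3, the fibroblast growth factor count was 4 without KOCKD 3 and 1 without KOCKD 1 or WTSHAM 2, and the sterol count was 1 in each fit without another of the 6 libraries and with length offsets.

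Among 12 genes that the study names, 1 was upregulated and 2, Col1a2 and Myh6, were downregulated, of which Myh6 was not called with length offsets. The count of 3 was 7 without WTSHAM 1 and 5 without KOCKD 1. The study names collagens, Postn, Fscn1 and Bcl3 as lowered by renalase overexpression, and not for KOCKD against WTSHAM hearts. This list was drawn from the same samples and is not independent of them. Fscn1, an actin-bundling protein gene, rose from 22.7, 45.2 and 39.8 CPM to 63.7, 55.2 and 62.3 CPM (0.75 ± 0.18, adjusted p = 0.0168). Bcl3, a partner of NF-kappaB, was at 10.8, 7.83 and 5.37 CPM against 6.64, 5.31 and 5.48 CPM and did not pass (adjusted p = 0.189). Of 14 endothelial markers 3 were downregulated and 1 was upregulated, where 14.3% of all tested genes were called. Their median was -0.003, with summed levels of 2760 to 3114 CPM and 2731 to 3275 CPM, and 2 were downregulated with length offsets. Vwf, the von Willebrand factor gene, was at 204, 102 and 95.5 CPM against 66.8, 37.5 and 35.6 CPM (-1.52 ± 0.32, adjusted p = 0.0084). None of 11 pericyte and smooth muscle, 2 T and B cell, 5 erythrocyte, 7 adipocyte, 1 lung, 2 skeletal muscle, 4 epicardial and 5 neural markers tested was called by edgeR. DESeq2 called 2 pericyte and smooth muscle markers, and 2 of these and 1 adipocyte marker had an unadjusted p under 0.05 in edgeR. Erythrocyte markers summed to 68.48 to 624.9 CPM in WTSHAM and 51.02 to 374.6 CPM in KOCKD hearts.

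A few named genes had KOCKD values apart from those of WTCKD hearts as well. Wdfy1, an endosomal adaptor gene, was at 6.58, 5.80 and 8.10 CPM in WTSHAM and 19.3, 18.4 and 18.04 CPM in KOCKD hearts (1.44 ± 0.32, adjusted p = 0.0102), and it was at 5.50, 6.44 and 5.19 CPM in WTCKD hearts. In the KOCKD + RNLS hearts it was at 7.40, 23.9 and 28.3 CPM, low in 1 of 3. Fam81a was at 6.08, 9.56 and 10.01 CPM in WTSHAM, 21.5, 38.3 and 15.7 CPM in KOCKD (1.55 ± 0.30, adjusted p = 0.00552), 9.05, 12.9 and 12 CPM in WTCKD and 29.1, 37.6 and 29.1 CPM in KOCKD + RNLS hearts. Both knockout groups were thus above all wild-type hearts in this gene. The differences between KOCKD and WTCKD were 1.70 and 1.15 on the log2 scale and did not pass over all genes (adjusted p = 0.258 and 0.426).

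For Gm2423 and Fggy the 3 KOCKD hearts did not overlap with the hearts of any other group. Against WTSHAM this was a condition of their naming. Gm2423, which the mm9 annotation lists as a pseudogene (chr13:13324425-13325162), was at 0, 0.75 and 0.37 CPM in WTSHAM and 4.72, 12.1 and 11.5 CPM in KOCKD hearts (4.59 ± 0.58, adjusted p = 0.000367). It was at 0.65, 0.91 and 0.66 CPM in KOCKD + RNLS hearts, which were of the same genotype by their labels. Fggy (chr4:95224198-95593630), a carbohydrate kinase gene, was at 5.998, 4.74 and 4.20 CPM in WTSHAM, 1.66, 0.093 and 0.16 CPM in KOCKD (-2.94 ± 0.50, adjusted p = 0.00253), 5.58, 4.60 and 6.04 CPM in WTCKD and 6.42, 6.12 and 7.40 CPM in KOCKD + RNLS hearts. Against WTCKD both genes had an adjusted p of 0.0507, the smallest of that comparison, which 4 genes shared and which did not pass 0.05. The others were Nedd9, at 57.02, 61.2 and 50.9 CPM in WTCKD and 35.4, 40.7 and 32.7 CPM in KOCKD hearts, and Efemp1, at 23.4, 29.99 and 21.4 CPM and 13.6, 10.53 and 14.4 CPM. Their WTSHAM values were 46.4, 43.9 and 47.8 CPM and 13.6, 12.3 and 16.2 CPM. Of the 18 tested genes within 2 Mb of Rnls on mm9 chromosome 19, none had an unadjusted p under 0.05 between KOCKD and WTCKD.

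**Figure D5:**
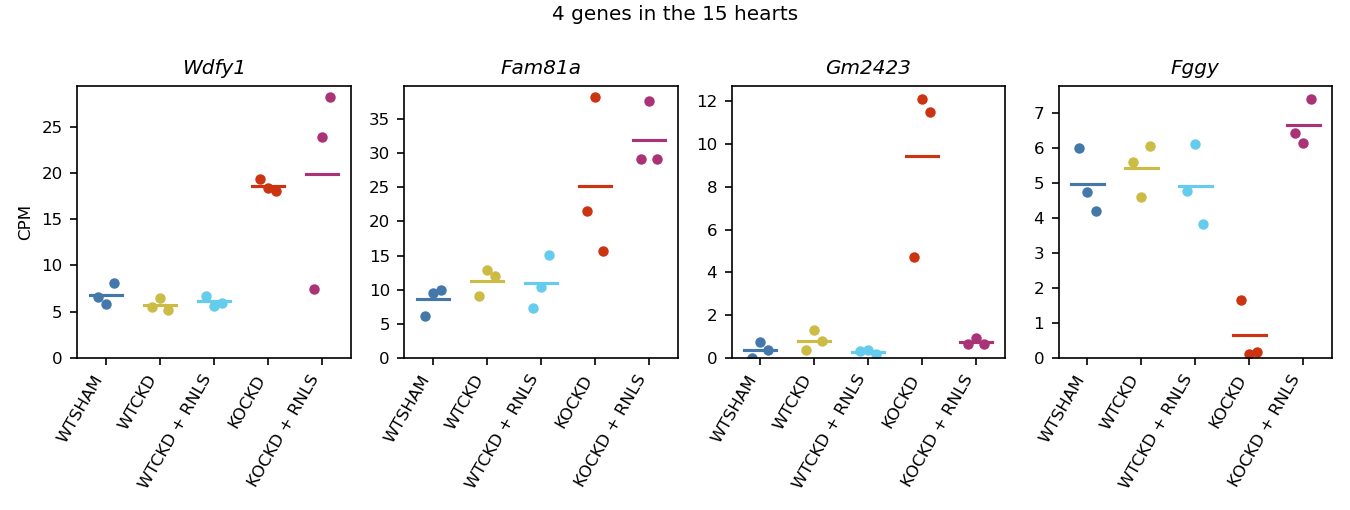
Wdfy1, Fam81a, Gm2423 and Fggy in the 15 hearts. CPM on a linear axis from 0 in the 5 groups of 3 hearts, one point per heart and a line at the group mean. Fam81a is high in both knockout groups, whereas Gm2423 is high and Fggy low in KOCKD hearts and not in KOCKD + RNLS hearts.

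The other large rises in KOCKD hearts were in genes of low level. Grin2c, an NMDA receptor subunit gene, was at 0.83, 0.98 and 1.32 CPM against 4.37, 3.73 and 2.26 CPM (1.70 ± 0.37, adjusted p = 0.00935) and rose in WTCKD hearts too (1.67, adjusted p = 0.0255). Gadd45b, a stress-inducible gene, was at 3.33, 5.57 and 2.43 CPM against 7.34, 7.08 and 13.6 CPM (adjusted p = 0.0358). Clba1 was at log2 fold changes of 1.16 ± 0.26 in KOCKD and 1.19 in WTCKD hearts. Hddc2, Helt and Mfsd4a had log2 fold changes of 1.248 ± 0.36, 1.198 ± 0.37 and 1.14 ± 0.33. Klra9, of a receptor family of natural killer cells, and the ribosomal pseudogene Rpl34-ps1 had 1.58 ± 0.43 and 1.12 ± 0.30, and the counts of both may hold reads of related copies. Gadd45b, Helt, Klra9 and Rpl34-ps1 were not called with length offsets. Among the large falls outside the interferon-inducible genes, Srp54b, a copy of a signal recognition particle gene, was at 16.5, 6.02 and 13.2 CPM against 2.10, 1.68 and 1.21 CPM (-2.84 ± 0.68, adjusted p = 0.0147), with reads that may be shared with its copies. Pkhd1l1, a large receptor-like gene, was at 2.42, 12.6 and 7.43 CPM against 1.75, 0.65 and 1.05 CPM (-2.69 ± 0.73, adjusted p = 0.0266) and was not called with length offsets (adjusted p = 0.0537).

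Of the 111 called genes named by the rules of the analysis, 62 kept the call whichever of the 6 libraries was left out. They included all those named for the interferon response other than Gm4841, those of the complement and chemokine lists and the collagens, as well as Wdfy1, Fam81a, Gm2423 and Fggy. The other 49 lost the call in at least one fit, 38 of them without WTSHAM 3 (largest adjusted p 0.222), 36 without KOCKD 2 (0.234), 27 without KOCKD 3 (0.168), 25 without WTSHAM 2 (0.161), 24 without KOCKD 1 (0.137) and 8 without WTSHAM 1 (0.239). They were mainly the genes with small changes, such as those of the respiratory chain, glycolysis, ribosome and sarcomere, and among the large ones Thbs1 without KOCKD 2, Srp54b without KOCKD 2 or KOCKD 3, Depp1 without KOCKD 2 and Pkhd1l1 in all but the fits without KOCKD 1 or WTSHAM 1.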

How the data were processed

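Hearts of 15 mice (5 groups of 3) were sequenced from stranded poly(A) libraries. The study's methods name 2 kinds of Illumina instrument as alternatives, and which was used for each library was not given in the sources used here. The authors trimmed the reads with Trimmomatic, mapped them with HISAT2 to mm9 (the submitters' processing notes name GRCm39) and deposited raw read counts per gene from htseq-count, 10953142 to 13107066 per library in the 6 hearts compared here. The authors also deposited Cufflinks FPKM values, used here for marker levels and for the length of each gene, which is the ratio of counts to FPKM scaled per library. Tool versions, the annotation and the strand setting of the counting were not given in the sources used here.

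Counts were fitted with edgeR 4.0.16 (quasi-likelihood, TMM scaling) under R 4.3.3 in one model of all 15 libraries with group as the only term, and KOCKD was contrasted with WTSHAM. CPM values are counts scaled to the same TMM-adjusted library size. Errors of log2 fold changes are SE, tests are two-sided, and p-values were adjusted over the 12704 genes tested, with a threshold of 0.05. At the edge of the filter, 240 genes had 10 or more counts in exactly 3 of the 6 libraries and 283 in exactly 2. 5 genes passed only through KOCKD hearts and 51 only through WTSHAM hearts. An exact permutation test of 3 against 3 cannot go below p = 0.1 and was not used. The steps were tested on simulated data.

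The comparison and the gene lists were chosen with earlier results of these data known. Named genes were the 12 largest rises and falls among called genes with an average log2 CPM over 1 and groups that did not overlap. Up to 4 called members of each list by smallest p were named too, or the member of smallest p where none was called. A further 14 genes were named whatever their values, as hypertrophy, matrix and clock genes or genes the study names. A few genes that these rules name are not reported here. Isg15, Irf9, B2m, H2-Ab1, Lyve1, Fcgr1, Ccr2, Vwf, Ttn, Hspa1a, Mmp15, Tgfb1, Nedd9 and Efemp1 were added after their values were seen. Alternatives were RLE scaling, 2 other filters, the 6 libraries alone, DESeq2 1.42.0, the replicate number as a block, length offsets (loess, span 0.5), an adjusted p under 0.1, and each replicate left out. Promoters were matched by symbol for 10128 of the 12704 genes, and positions in mm9 for 11284.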

Additional observations from a re-analysis of the deposited data

How the results depend on the processing

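The 1815 genes changed between KOCKD and WTSHAM hearts became 1120 (352 higher, 768 lower) with the 6 libraries alone, 1048 with length offsets, 3052 at an adjusted p under 0.1, and 700 to 2033 with one library left out. With RLE scaling (1760), no filter (1614), the default filter (1795) and DESeq2 (2127) the count stayed within 1.5 times. The 306 genes of WTCKD against WTSHAM became 109 with 6 libraries, 574 with DESeq2, 678 at an adjusted p under 0.1, and 136 to 390 with a library left out. The count of 0 between KOCKD and WTCKD became 4 with RLE scaling, 5 without a filter, 2 with 6 libraries, 9 with DESeq2, 4 at an adjusted p under 0.1, and 0 to 3 with a library left out. The replicate numbers did not pair the hearts (correlations of same-numbered deviations -0.07, -0.163 and 0.188), and with the replicate block the counts were 1564, 258 and 1. Of 127 named genes, 91 kept direction and side of the threshold with length offsets, 103 with 6 libraries and 118 with the block.

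Signs turned in several lists and in genes that were not called. With length offsets the medians of calcium handling and antioxidant genes were 0.046 and -0.008, and Pde4d and Arntl were at 0.217 and 0.269. With one library left out, the glucocorticoid-responsive median ran from -0.283 (without KOCKD 2) to 0.469 (without WTSHAM 1) and the heat shock median from -0.201 to 0.223 (without WTSHAM 1). Nppa ran from -0.306 (without KOCKD 3) to 1.337, Myh7 from -0.825 (without KOCKD 3) to 1.35 (without WTSHAM 1), Acta1 from -1.234 to 0.219 (without WTSHAM 1), Arntl from -0.493 to 0.401 (without WTSHAM 3), Per2 from -1.295 to 0.773 (without WTSHAM 1) and Dbp from -0.281 (without KOCKD 3) to 1.447. The atrial median, of 0.587, was -0.793 without KOCKD 3, and the medians of the hypertrophy, clock, immediate early, aryl hydrocarbon receptor, cell cycle, sterol, endothelial, pericyte and adipocyte lists, each nearer to 0, turned under one or more alternatives. The cause was not tested. Depth limits genes of low count, such as Ccl2 and Bst1.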
